A study of Mus musculus with 2 samples.

Results

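The proteasome genes of the mouse cerebral cortex are described here from full-length transcript reads. Members were the protein-coding genes whose symbol begins with Psma, Psmb, Psmc, Psmd, Psme, Psmf or Psmg followed by a digit and that had a read in both libraries of the series. This gave 47 of the 14631 annotated genes with a read in both libraries, or of 13061 when protein-coding genes alone are counted. The annotation holds 50 protein-coding genes with such a name. Psma8, the alpha subunit of spermatocytes, and Psme2b had 0 reads in replicate 1 and 1 read in replicate 2. Psmb11, the thymic catalytic subunit, had no read in either library. A further 4 genes with such names are annotated as pseudogenes and had 0 reads. The name rule also caught Psmc3ip, which encodes a partner of meiotic recombination enzymes and is no proteasome subunit, with 1 read in each library. The other 46 members fell into 10 groups by the role of their proteins.

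The proteasome is the large protease that degrades proteins marked with ubiquitin. Its core particle is a barrel of stacked rings, with outer rings of alpha subunits that gate the entrance and inner rings of beta subunits, of which some carry the protease active sites. A regulatory particle caps the barrel: its base holds a ring of ATPases that unfold the substrate and thread it into the core, and its lid removes the ubiquitin chain. In neurons the proteasome takes part in protein turnover at synapses, and in immune cells and under interferon the catalytic subunits are exchanged for immune forms whose products are presented on MHC class I.

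The series holds 1 group: left cerebral cortex from male mice of the strain B6CASTF1/J, a first-generation cross of C57BL/6J with the wild-derived CAST/EiJ, at an age of 14 days. It consists of 2 libraries, labelled biological replicates 1 and 2, each from 2 µg of total RNA, and there is no treatment or second genotype. The 2 samples share a donor identifier and their descriptions mention several males, so each may be a pool, and p-values measure only the difference between these samples beyond counting error. Reads of the C57BL/6J and CAST/EiJ alleles are not separated in the deposited tables.

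Replicate 1 held 775048 mouse reads and replicate 2 held 924222, after 7473 and 10830 reads of ERCC spike-ins were set aside. A long read covers a transcript rather than a fragment of it, so levels are counts per 1000000 mouse reads (CPM) and are not divided by transcript length. The tables carry no molecular identifiers, and reads need not be separate molecules. A count of 3 reads, the most that a count of 0 allows, is 3.87 CPM in replicate 1 and 3.25 CPM in replicate 2, counting error only. All 6 markers of excitatory neurons had reads in both libraries and summed to 3571 and 5128 CPM in replicates 1 and 2, with 1 of 6 past the gene test as higher in replicate 2. The libraries also differed in other markers, given as summed CPM in replicates 1 and 2. Astrocyte markers summed to 2556 and 3020 CPM, and 1 of 5 tested passed as higher in replicate 2. Those of striatal neurons summed to 923 and 223 CPM, and 5 of 6 tested passed as lower in replicate 2. Those of myelinating oligodendrocytes summed to 3215 and 2104 CPM, and 3 of 5 tested passed as lower. Red blood cell markers summed to 293 and 545 CPM, and 3 of 5 tested passed as higher. Choroid plexus markers summed to 38.7 and 256 CPM, and the 1 tested, Ttr, passed as higher. Over all tested genes 2.11% passed in either direction. The part of these differences in the proteasome values was not tested. In bulk tissue, fewer cells of a type and less RNA per cell cannot be told apart.

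Proteasome genes took 4203 of the mouse reads of replicate 1 (0.542%) and 4952 of those of replicate 2 (0.536%). Summed, this was 5390 ± 45.9 CPM (mean ± SD, n = 2). Psmd2 was the highest member at 522 ± 39.0 CPM, and Psmb8 and Psmc3ip were the lowest at 1.19 ± 0.147 CPM each. Subunits of the core particle and of the regulatory particle mostly lay between 50 and 300 CPM. The activators and assembly chaperones ranged from 5.93 CPM for Psme4 to 85.3 CPM for Psmd5, and overlapped the lowest subunits, as the plot of levels by gene shows.

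**Figure D1:**
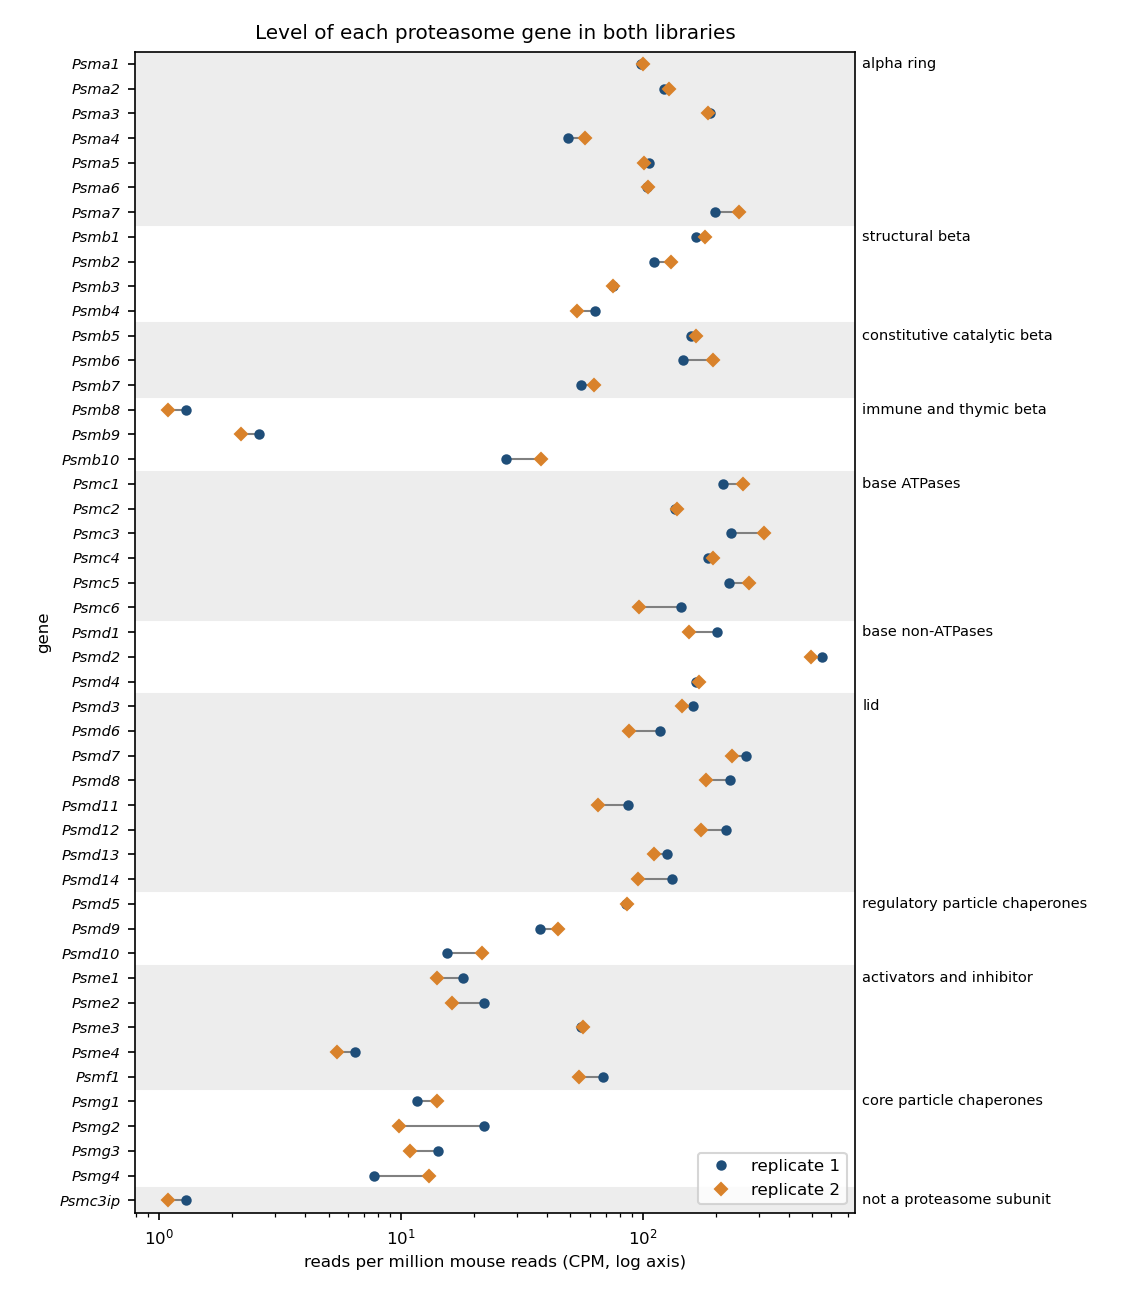
Level of each of the 47 genes in replicate 1 (circles) and replicate 2 (diamonds) in CPM on a log axis, with grey lines joining the 2 values and shaded bands marking role groups. Psmd2 lies highest, Psmb8, Psmb9 and Psmc3ip lie near 1 or 2 CPM, and the lid genes all have the circle to the right of the diamond.

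The 7 alpha ring genes, whose products close and open the gate of the core, had a median of 105 ± 0.599 CPM. Psma7 was the highest of them, with 154 reads in replicate 1 (199 CPM) and 229 in replicate 2 (248 CPM). Psma3 followed with 147 and 171 reads (190 and 185 CPM), and Psma2 with 94 and 118 reads (121 and 128 CPM). Psma6 (103 and 105 CPM), Psma5 (106 and 101 CPM) and Psma1 (98.1 and 99.5 CPM) lay close together, and their order is not set apart by the spread between libraries. Psma4 was lowest with 38 and 53 reads (49.0 and 57.3 CPM). Although each subunit occurs once per ring, the highest alpha gene lay 4.20 times above the lowest in mean CPM.

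Among the beta genes, the 4 that build the inner ring without an active site had a median of 97.6 ± 6.61 CPM. Psmb1 stood at 165 and 181 CPM, Psmb2 at 111 and 130 CPM, Psmb3 at 74.8 and 74.7 CPM and Psmb4 at 63.2 and 53.0 CPM. The constitutive catalytic genes had a median of 156 ± 14.0 CPM. Psmb6, the caspase-like subunit, had 113 and 180 reads (146 and 195 CPM), and Psmb5, the chymotrypsin-like subunit and main target of proteasome inhibitors, had 122 and 153 reads (157 and 166 CPM). These 2 lay within their spread of each other. Psmb7, the trypsin-like subunit, was lower in both libraries, with 43 and 58 reads (55.5 and 62.8 CPM).

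The immune catalytic genes were low, and nearly all of their reads came from Psmb10. Psmb10, which replaces Psmb7, had 21 reads in replicate 1 and 35 in replicate 2 (27.1 and 37.9 CPM). Psmb8, which replaces Psmb5, had 1 read in each library, and Psmb9, which replaces Psmb6, had 2 in each, both under the 3-count floor. Of all reads of the 6 catalytic genes, the immune forms held 24 of 302 in replicate 1 (7.95%, 5.40% to 11.6% as 95% Wilson interval) and 38 of 429 in replicate 2 (8.86%, 6.52% to 11.9%). The intervals overlap. When only reads of complete annotated transcripts were counted, the share over both libraries was 4.01% in place of 8.48%, since most Psmb10 reads were partial, as described below. In the same libraries, 12 genes of interferon response and antigen presentation, from a list chosen for the comparison, were not all equally low. Isg15 had 0 and 1 read, Irf1 2 and 2, and Tap1 4 and 4. H2-D1, the highest, had 34 and 53, Tapbp 33 and 41, and B2m 22 and 26, beside 21 and 35 for Psmb10. Of 6 that could be tested 0 passed the test between the libraries. Microglia markers were present with 440 and 496 summed reads, while the 4 leukocyte markers had 9 and 6: Lck had 5 and 6 reads, Ptprc 4 and 0, and Cd3e and Cd8a 0 in both.

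In the base of the regulatory particle, the 6 ATPase genes had a median of 213 ± 18.9 CPM. Psmc3 had 178 reads in replicate 1 and 291 in replicate 2 (230 and 315 CPM). Psmc5 had 176 and 253 reads (227 and 274 CPM), Psmc1 166 and 240 (214 and 260 CPM) and Psmc4 144 and 179 (186 and 194 CPM). Psmc2 had 105 and 128 reads (135 and 138 CPM), and Psmc6 111 and 89 (143 and 96.3 CPM). Psmc6 was the only ATPase gene with fewer reads in the deeper library. The ATPases occur as a ring with each subunit once, and the highest mean lay 2.27 times above the lowest, the narrowest range of the subunit groups.

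Of the base subunits without ATPase activity, Psmd2, a scaffold that binds ubiquitin-like domains, had 426 and 457 reads (550 and 494 CPM). Psmd1, the other large scaffold, had 157 and 143 reads (203 and 155 CPM), and Psmd4, a ubiquitin receptor, had 128 and 157 (165 and 170 CPM). Psmd2 lay above every other member in both libraries.

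The 8 lid genes had a median of 137 ± 13.3 CPM. Psmd7 was highest with 206 and 215 reads (266 and 233 CPM). Psmd8 had 177 and 168 reads (228 and 182 CPM) and Psmd12 170 and 160 (219 and 173 CPM), followed by Psmd3 with 125 and 134 (161 and 145 CPM). Psmd14, the enzyme that cuts off the ubiquitin chain, had 102 and 88 reads (132 and 95.2 CPM), Psmd13 97 and 102 (125 and 110 CPM) and Psmd6 91 and 81 (117 and 87.6 CPM). Psmd11 was lowest with 67 and 60 reads (86.4 and 64.9 CPM). In CPM all 8 were higher in replicate 1.

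The medians of the assembly and regulatory groups lay below those of the subunit groups other than the immune forms, while Psmd5, Psmf1 and Psme3 overlapped the lowest subunits. The chaperones of the regulatory particle, which hold ATPases during assembly, were Psmd5 (66 and 79 reads), Psmd9 (29 and 41) and Psmd10 (12 and 20), with a median of 40.9 ± 4.91 CPM. The activators that open the core were Psme3, the nuclear form, with 43 and 52 reads, Psme1 with 14 and 13 and its partner Psme2 with 17 and 15, and Psme4 with 5 and 5. Psmf1, a core-binding inhibitor, had 53 and 50 reads (68.4 and 54.1 CPM). The chaperones of the core particle, which act in pairs on the alpha ring, were Psmg1 (9 and 13 reads), Psmg2 (17 and 9), Psmg3 (11 and 10) and Psmg4 (6 and 12), with a median of 12.4 ± 0.707 CPM. Counts this small leave their order open.

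Between the libraries, the level of 1 member passed the test and the others did not. Psmc3 was higher in replicate 2 by 0.45 on the log2 scale (95% interval 0.18 to 0.72, adjusted p = 0.0427 by Fisher's exact test with Benjamini-Hochberg adjustment over 11203 genes). A gene needed 10 reads or more over the libraries to be tested, which 44 members had. Over all tested genes, 2.11% passed in either direction and 1.10% as higher in replicate 2, so a count of 1 among 44 is near the background, and 0 members passed as lower. At an unadjusted p under 0.05 there were 9 of 44 members and 1254 of 11203 genes (11.2%). The call of Psmc3 was lost when reads of annotated transcripts alone were counted (log2 ratio 0.42, adjusted p = 0.137 by Fisher's exact test) and when no read minimum was set (log2 ratio 0.45, adjusted p = 0.0700), with the ratio close to the reported one in both. Psmc3 also had 31 and 29 reads of other models over its exons on the opposite strand, which were not counted to it. Such reads were found at 28 members, with the most at Psmb7 (43 and 60, beside its own 43 and 58).

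The median log2 ratio of replicate 2 to replicate 1 was 0.01 over the tested members and -0.01 over all tested genes. The medians of the role groups lay on different sides of 0. Of the 20 core particle genes (immune forms left out) and base ATPases, 15 lay above 0, with a median of 0.07. Taken apart, 10 of 14 core genes and 5 of 6 ATPases lay above 0. The ATPases belong to the regulatory particle, and joining them with the core was not among the planned groups, so the joined counts are descriptive. The joined count was 16 when library sizes were set by protein-coding reads, TMM or DESeq2 factors. It was 12 of 19 when annotated transcripts alone were counted. Of the 11 genes of the lid and the other base subunits, likewise joined, 10 lay below 0, with a median of -0.33. The lid alone had 8 of 8 below 0, between -0.47 for Psmd14 and -0.15 for Psmd3, and a median of -0.34. The activators and inhibitor lay as low, with 4 of 5 below 0 and a median of -0.34, on few reads. The 3 chaperones of the regulatory particle lay above 0 with a median of 0.24, and the 4 of the core particle lay on both sides. The lid count was 8 of 8 under each of these settings. The library sizes could hardly change it, since they moved the lid median from -0.335 to no further than -0.325. All 8 genes were read from the same 2 libraries, so their count is not one of independent samples. Over all genes 5431 of 11203 lay above 0. Of the lid genes 0 passed the test, and Psmd8, Psmd12 and Psmd14 had an unadjusted p under 0.05 (0.0350, 0.0356 and 0.0287 by Fisher's exact test). Outside the lid, unadjusted values under 0.05 belonged to Psmc6 (log2 ratio -0.57), Psmd1 (-0.39), Psmg2 (-1.14), Psmb6 (0.42), Psma7 (0.32) and Psmc3.

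**Figure D2:**
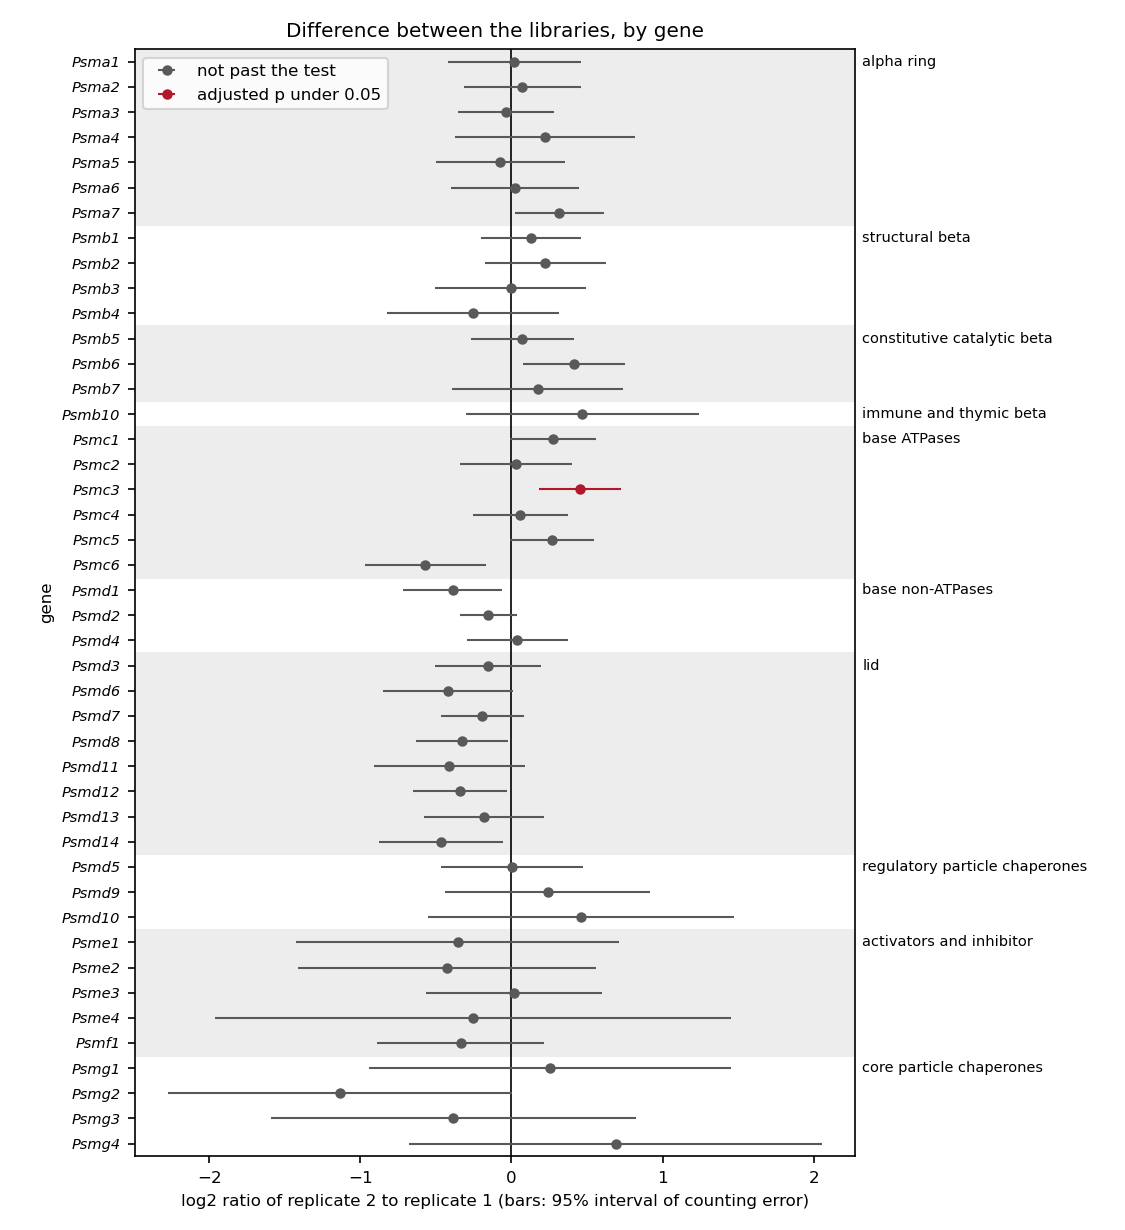
Log2 ratio of replicate 2 to replicate 1 for the 44 tested genes (points), with 95% intervals that cover counting error only (bars) and role groups as bands; red marks an adjusted p under 0.05. Psmc3 is the only red point, the 8 lid genes lie left of 0, and 5 of their 8 intervals reach 0.

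By transcript length, only the range of the shortest transcripts had a median ratio well above 0. Genes whose leading annotated transcript was at most 1000 bases long had a median ratio of 0.23 over all 930 such genes. The median was -0.00 for 1000 to 2000 bases, -0.04 for 2000 to 3000, -0.05 for 3000 to 4000 and -0.04 over 4000 (2769 genes). The core particle genes and base ATPases had a median length of 1220 bases, and the lid and other base genes 1904 bases. Both medians lie in the range of 1000 to 2000 bases, but the shortest transcripts were 766 and 1332 bases. Only the core genes and ATPases thus had genes in the shortest range. These were Psmb6 (798 bases, 0.42), Psma7 (914 bases, 0.32), Psmb2 (859 bases, 0.22), Psmb5 (899 bases, 0.07) and Psmb3 (766 bases, -0.01). Members of 1000 to 2000 bases lay on both sides, with 14 of 24 above 0, among them the lid genes Psmd6 (1387 bases, -0.42), Psmd8 (1391 bases, -0.33) and Psmd14 (1541 bases, -0.47) below it. The part of length, and of the striatal and myelin markers that were higher in replicate 1, in the ratios of the role groups was not tested.

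**Figure D3:**
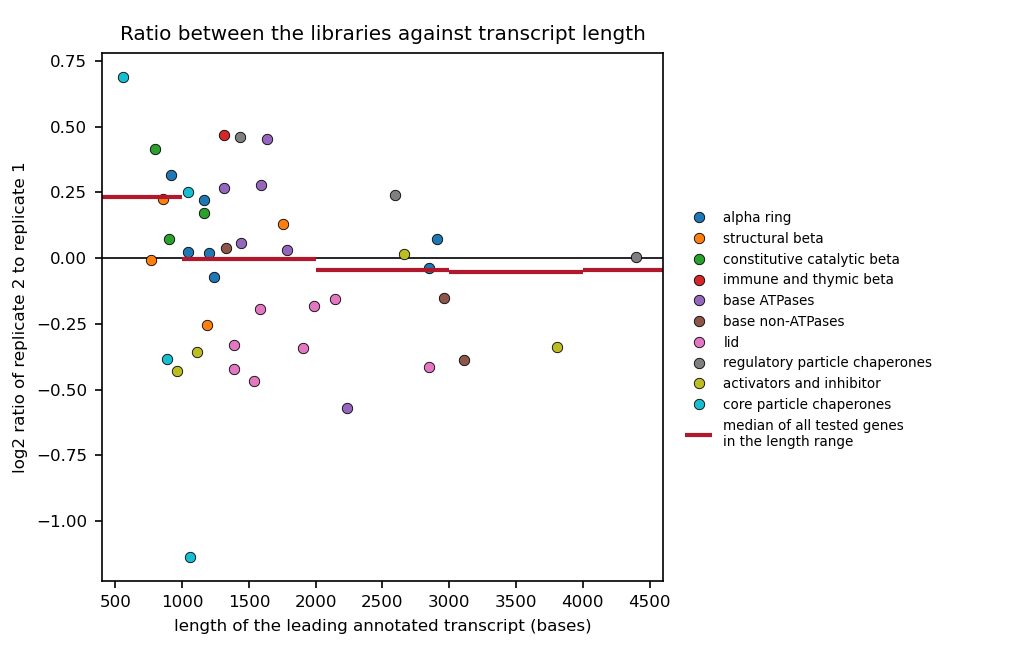
Log2 ratio of replicate 2 to replicate 1 of 43 tested genes against the length of their leading annotated transcript in bases, coloured by role group; red lines are the medians of all tested genes in each length range. Only the shortest range has a median well above 0 (0.23), and the lid genes lie below the red lines.

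The other genes of the pathway came from a list of 25 symbols of proteasome subunits with other names, assembly factors, transcription factors of proteasome genes and ubiquitin shuttles, in which 1 gene stands under an old and a new symbol. Of 23 tested, 1 passed the test as higher in replicate 2 and 0 passed as lower. Over all tested genes 1.10% passed as higher and 2.11% in either direction. The log2 ratios lay on both sides of 0, from -0.44 for Usp14 to 0.95 for Sem1, with a median of 0.07. The one that passed was Sem1, a small lid subunit, with 37 and 86 reads (log2 ratio 0.95, adjusted p = 0.0313 by Fisher's exact test), opposite in sign to the 8 lid members. Adrm1, a ubiquitin receptor of the base, had 120 and 123 reads. Vcp, the segregase that hands substrates to the proteasome, had 348 and 331 reads, and Usp14, a proteasome-bound deubiquitinase, 182 and 160. Nfe2l1, the transcription factor that raises proteasome genes when activity is low, had 166 and 219 reads, and Zfand5, a proteasome-binding zinc finger protein, 217 and 204.

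Most proteasome reads matched complete annotated transcripts. Known models, whose introns match an annotated transcript, held 84.1% ± 1.08 of member reads (mean ± SD, n = 2), against 72.3% ± 0.827 over protein-coding genes. Incomplete splice matches (ISM), which hold a part of an annotated chain of introns, held 9.03% ± 0.686. New combinations of annotated splice sites (NIC) held 2.93% ± 0.200, and chains with an unannotated splice site (NNC) 2.71% ± 0.397. Genomic models, which overlap the gene without its splicing, held 1.21% ± 0.200. Among spliced reads, NIC and NNC chains took 5.59% in replicate 1 (231 of 4134) and 5.89% in replicate 2 (286 of 4852), against 12.6% in both libraries over protein-coding genes. Among Known member reads, transcripts annotated for nonsense-mediated decay held 0.533% and 0.606%, and retained-intron transcripts 0.561% and 0.969%. The classes were not spread evenly: Psmd10, Psmb8, Psmb9 and Psmc3ip had Known reads only, while Psmc2 and Psme4 had 1 and 0.

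**Figure D4:**
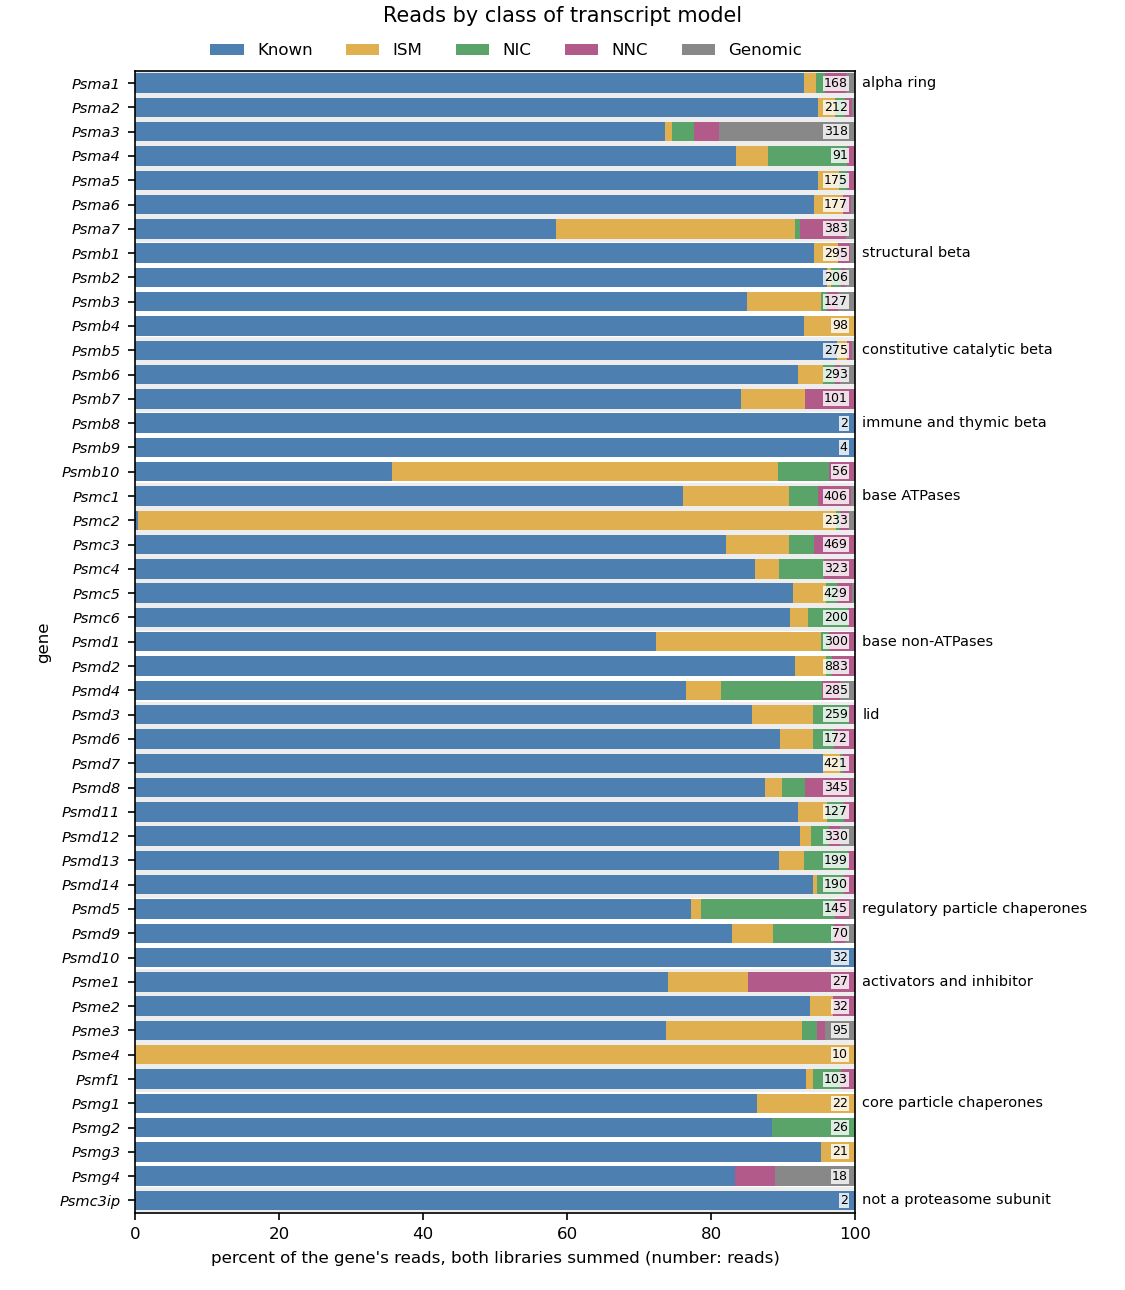
Share of each gene's reads by class of transcript model (Known, ISM, NIC, NNC, Genomic), both libraries summed, with the number of reads at the right of each bar. Psmc2 and Psme4 consist almost wholly of ISM reads, Psmb10 and Psma7 have large ISM shares, Psma3 has the largest Genomic block among genes with over 100 reads, and Psmd5 and Psmd4 have visible NIC blocks.

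Psmc2 reads lacked the first annotated exon. In replicate 1, 100 of 105 reads (95.2%, 89.3% to 97.9% as 95% Wilson interval) and in replicate 2, 121 of 128 (94.5%, 89.1% to 97.3%) belonged to 1 partial model that runs from the start of the annotated exon 2 to the end of the gene with 12 exons. The first annotated intron of Psmc2-201 (chr5:21785518-21786649, mm10) was present in 0 and 1 reads, and the second in 104 and 123. RefSeq gives Psmc2 2 starts, and the window of the downstream one lies over the first intron and the start of the annotated exon 2. The 2 promoter windows, 250 bases before to 50 after each start, are shown on the plus strand because the reads bear on the first exon; capitals mark the ETS core CCGGAAG on either strand.
Psmc2 upstream start, chr5:21785025-21785324: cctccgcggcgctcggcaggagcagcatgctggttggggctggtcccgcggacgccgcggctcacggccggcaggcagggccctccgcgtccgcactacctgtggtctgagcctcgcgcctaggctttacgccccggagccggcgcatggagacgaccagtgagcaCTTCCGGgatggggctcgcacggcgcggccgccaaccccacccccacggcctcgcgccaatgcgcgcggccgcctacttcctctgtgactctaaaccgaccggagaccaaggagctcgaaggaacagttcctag
Psmc2 downstream start, chr5:21786497-21786796: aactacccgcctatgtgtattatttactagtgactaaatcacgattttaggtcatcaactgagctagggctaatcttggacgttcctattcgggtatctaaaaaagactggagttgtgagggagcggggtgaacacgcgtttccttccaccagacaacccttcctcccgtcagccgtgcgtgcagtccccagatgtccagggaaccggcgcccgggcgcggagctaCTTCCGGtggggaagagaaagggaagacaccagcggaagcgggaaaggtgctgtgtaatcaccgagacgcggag
Each window holds 1 match, on the minus strand. The ends of the deposited models may be taken from the annotation, so the base at which the reads began is not given by them.

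First introns were counted in a few members only, and most of these kept them in most reads. The first intron of Psmc1-201 was in 128 of 160 and 187 of 235 reads that could show it (80.0% and 79.6%), and that of Psma7-201 in 101 of 113 and 129 of 137 (89.4% and 94.2%). That of Psmb3-201 was in 87.5% and 90.6%, and that of Psmd3-201 in 93.5% and 93.8%. For Psmb10-201 it was in 6 of 18 and 11 of 24 (33.3% and 45.8%), so Psmb10 lay between Psmc2 and the others counted. In Psmb10 the leading model was a partial one lacking the first exon, with 11 of 21 reads in replicate 1 and 11 of 35 in replicate 2, beside 4 and 11 reads of the complete Psmb10-201. Psme4, which encodes the largest activator, had only ISM reads, 5 in each library.

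In Psma7 many reads belonged to a partial model with the last 4 of its 7 exons. This model held 36 of 154 reads in replicate 1 (23.4%, 17.4% to 30.7%) and 79 of 229 in replicate 2 (34.5%, 28.6% to 40.9%), and the intervals overlap. Psma7 also had an unannotated chain with 10 and 11 reads (6.49% and 4.80%). Its first intron (chr2:180039480-180041987) began 290 bases inside the annotated first intron and ended at the annotated exon 2. Whether these reads begin in the annotated exon 1 was not tested. In Psmd1 a partial model of the first 22 exons, ending before the last 3, held 33 of 157 reads (interval 15.4% to 28.0%) in replicate 1 and 16 of 143 (11.2%, 7.01% to 17.4%) in replicate 2, and the intervals overlap. In Psma3 a Genomic model of 1 exon, lying inside the last exon of Psma3-202, held 26 of 147 reads (17.7%) and 32 of 171 (18.7%). Overlap of intervals does not show that the libraries agree, and the shares of single partial models were not compared by a test. Whether these partial models are transcripts or fragments was not tested.

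Few members had more than 1 common isoform. Leaving ISM, Genomic and antisense models aside, 28 members had at least 50 reads in each library, and 4 of them (14.3%) had 2 or more isoforms that each held at least 10% of the reads in both libraries. Over all 2631 genes with such depth the share was 29.0%. The median share of the leading isoform was 93.8% in the members and 88.1% over all genes, and it ranged from 55.5% in Psmd4 to 99.3%. The 4 members were Psmd4, Psmd11, Psmb6 and Psmd5.

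Psmd4 was the most divided. Psmd4-202 held 68 of 118 reads (57.6%, 48.6% to 66.2%) in replicate 1 and 79 of 147 (53.7%, 45.7% to 61.6%) in replicate 2, and Psmd4-201 held 35 (29.7%, 22.2% to 38.4%) and 36 (24.5%, 18.2% to 32.0%). Both encode protein and have 10 exons, and they differ by 9 coding bases at an exon end (chr3:95033909-95033917, minus strand). The junction is shown in mRNA sense because it is the coding difference between the 2 leading isoforms of the most divided member; capitals mark the bases that Psmd4-202 lacks.
Psmd4-201: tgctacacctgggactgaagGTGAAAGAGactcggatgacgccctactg
Psmd4-202: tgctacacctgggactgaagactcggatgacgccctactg
A further NIC chain of Psmd4, which keeps a 539-base intron, had 4 and 10 reads.

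Psmd11-201 held 55 of 64 reads (85.9%) and 46 of 58 (79.3%), and Psmd11-214 held 7 (10.9%, 5.40% to 20.9%) and 9 (15.5%, 8.38% to 26.9%). Both share the coding exons, and Psmd11-214 lacks the last intron, which lies in the 3′ untranslated region. Psmb6-201 held 91 of 105 (86.7%) and 147 of 172 (85.5%), beside Psmb6-202 with 11 (10.5%, 5.95% to 17.8%) and 21 (12.2%, 8.13% to 17.9%). Psmb6-202 is annotated as a retained-intron transcript, holds only the last 2 exons and begins inside the intron before them. The shares of the minor isoforms overlapped between the libraries in all 4 genes.

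Psmd5 had the most frequent exon skipping among the members. Its 145-base coding exon at chr2:34866893-34867037 (minus strand) was in 51 reads and skipped in 12 in replicate 1 (included in 81.0%, 69.6% to 88.8%), and in 67 and skipped in 11 in replicate 2 (85.9%, 76.5% to 91.9%). The chain without it is unannotated (NIC) and held 11 of 66 and 10 of 79 Psmd5 reads. The exon length is not a multiple of 3. Psmd9, another assembly chaperone, skipped a 103-base coding exon at chr5:123234594-123234696 (plus strand) in 3 of 27 and 2 of 39 reads, so it was included in 88.9% (71.9% to 96.1%) and 94.9% (83.1% to 98.6%). Both exons are shown in mRNA sense with 15 bases of the neighbouring exons on each side because they are the skipped ones; capitals mark the exon.
Psmd5: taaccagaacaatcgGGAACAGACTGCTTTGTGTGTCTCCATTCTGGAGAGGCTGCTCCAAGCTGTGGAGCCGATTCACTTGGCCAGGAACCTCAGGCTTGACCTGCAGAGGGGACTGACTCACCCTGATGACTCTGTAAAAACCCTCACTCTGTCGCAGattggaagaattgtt
Psmd9: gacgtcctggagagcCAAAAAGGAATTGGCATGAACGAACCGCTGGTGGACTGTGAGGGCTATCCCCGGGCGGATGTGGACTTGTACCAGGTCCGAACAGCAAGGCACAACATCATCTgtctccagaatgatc
Psmf1 skipped an 83-base coding exon (chr2:151734222-151734304) in 1 of 47 and 3 of 45 reads, and its transcript Psmf1-206, annotated for nonsense-mediated decay, had 5 reads in each library. These were the only 3 exons with an inclusion of 5% to 95% in either library, of 285 internal exons with at least 20 informative reads in each. No read skipped 265 of them.

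In Psmd8 an unannotated NNC chain held 10 of 177 reads (5.65%, 3.10% to 10.1%) and 12 of 168 (7.14%, 4.13% to 12.1%). It joins exon 1 to a site inside an annotated exon and leaves out 73, 103 and 34 bases of 3 consecutive coding exons (chr7:29179143-29179215, 29178919-29179021 and 29177198-29177231). These make 210 bases, a multiple of 3. Of 285 unannotated spliced chains of the members, 47 were found in both libraries and held 235 of their 516 reads, and 210 rested on 1 read. The Psmd5, Psmd8 and Psma7 chains were the 3 with at least 3 reads in each library and 5% of the reads of the gene.

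Psma3 differed by 5 bases. Psma3-202, the protein-coding form, had 93 and 101 reads (63.3% and 59.1% of all Psma3 reads), and Psma3-201, annotated for nonsense-mediated decay, had 7 (4.76%, 2.33% to 9.50%) and 17 (9.94%, 6.30% to 15.3%). Psma3-201 uses a splice site 5 bases further into the third exon (chr12:70983319-70983323, plus strand). The junction is shown because so small a shift changes the reading frame; capitals mark the bases left out.
Psma3-202: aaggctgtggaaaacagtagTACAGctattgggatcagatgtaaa
Psma3-201: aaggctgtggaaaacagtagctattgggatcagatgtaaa
Psmd10, on the X chromosome, had 9 and 16 reads of Psmd10-201 and 3 and 4 of Psmd10-202, both protein-coding.

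**Figure D5:**
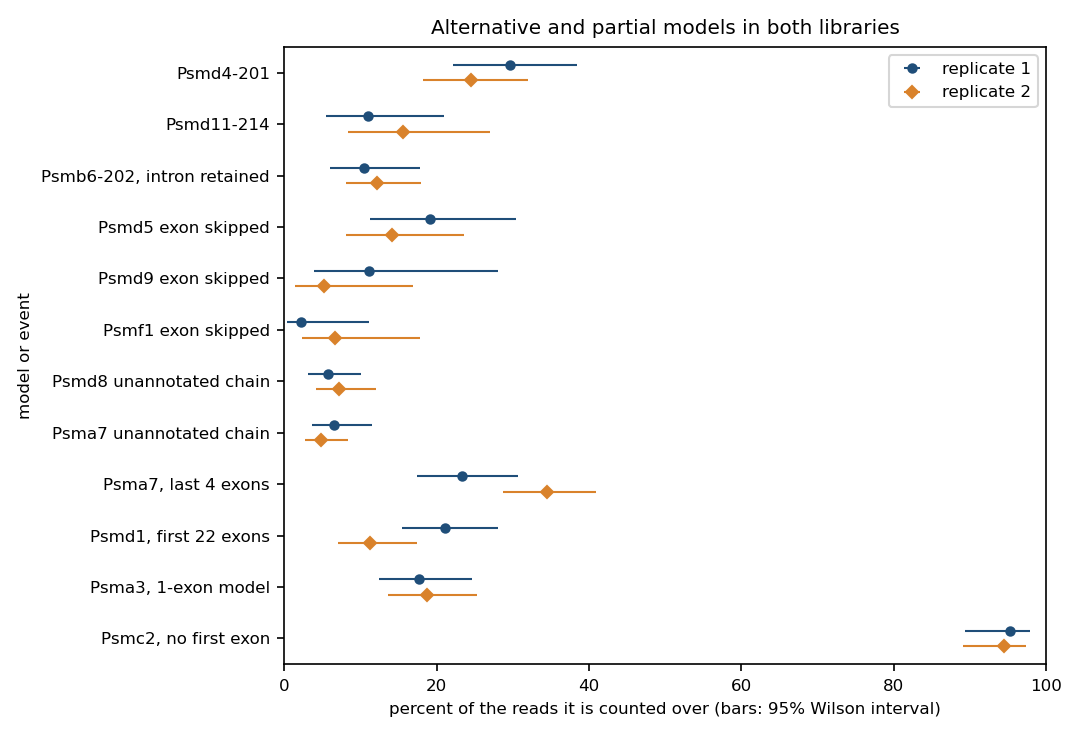
Share of reads of the named alternative and partial models and of skipped exons in replicate 1 (circles) and replicate 2 (diamonds), with 95% Wilson intervals as bars; each share is over the reads that could show it. The intervals of the 2 libraries overlap for every entry, which is no test of agreement, and the Psmc2 model without the first exon lies near 95% in both.

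Isoform use did not differ between the libraries past the threshold in any of 30 members that had at least 50 reads of all classes in each. The chi-square test with Benjamini-Hochberg adjustment over 3195 genes passed 0.782% of all genes and 0 members. At an unadjusted p under 0.05 there were 1 of 30 members and 266 of 3195 genes. The member was Psmd2, where Psmd2-201 held 404 of 426 reads in replicate 1 (94.8%) and 406 of 457 in replicate 2 (88.8%), with an adjusted p of 0.126 by the chi-square test across all genes.

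Promoters of the members were read from RefSeq (GRCm38.p6, the mm10 build), which matched 40 of the 47 genes with 43 windows of 300 bases. The ETS core CCGGAAG, the binding letters of a large family of transcription factors, was found on either strand in 15 of 40 genes (37.5%). Its share was 9.93% of all 27025 genes and 8.86% of all 32851 promoters. These backgrounds are not limited to genes with reads here, and the share among such genes was not computed. The core of the antioxidant response element, TGACNNNGC, to which Nfe2l1 and Nfe2l2 bind, was found in 6 of 40 (15%), against 14.0% of genes. These were Psmb5, Psmb6, Psmc6, Psmd12, Psmd9 and Psme4. CCAAT was found in 14 (35.0%, against 41.1% of genes) and the E-box CACGTG in 4 (10.0%, against 8.09%). No matches of different motifs shared a base in these windows, a match is no evidence of binding, and no data of the series bear on it. Psmc6, Psmd12 and Psme4 held both the ETS core and the antioxidant core. The windows of Psmd12 and Psmc6, both on the plus strand, are shown because these are subunit genes with both motifs; capitals mark the matches on either strand.
Psmd12, chr11:107479278-107479577: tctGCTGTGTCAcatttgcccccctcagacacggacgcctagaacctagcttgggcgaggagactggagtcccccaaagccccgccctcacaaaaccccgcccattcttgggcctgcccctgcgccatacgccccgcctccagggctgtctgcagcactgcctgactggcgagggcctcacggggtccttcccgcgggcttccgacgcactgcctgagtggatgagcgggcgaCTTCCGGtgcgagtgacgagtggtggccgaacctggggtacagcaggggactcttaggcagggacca
Psmc6, chr14:45329574-45329873: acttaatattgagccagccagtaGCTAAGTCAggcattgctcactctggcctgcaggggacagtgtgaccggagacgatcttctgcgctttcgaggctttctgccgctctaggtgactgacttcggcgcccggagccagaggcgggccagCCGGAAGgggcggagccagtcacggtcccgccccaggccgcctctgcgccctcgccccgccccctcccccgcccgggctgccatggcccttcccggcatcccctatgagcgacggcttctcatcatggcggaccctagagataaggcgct
In Psmd12 both matches lie on the minus strand, the ETS core just before the start and the antioxidant core near the far end of the window. In Psmc6 the ETS core lies on the plus strand. The genes with the ETS core were spread over the roles, from Psma6 through Psmc1, Psmc2, Psmc6, Psmd2, Psmd4 and 4 lid genes (Psmd6, Psmd11, Psmd12, Psmd13) to Psme3, Psme4, Psmg1 and Psmg3. Psmc3ip was the remaining one. Psmb5 and Psmb6, the matched constitutive catalytic genes, did not hold it.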

How the data were processed

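The authors deposited, per library, a table of transcript models with whole-number read counts and no normalization, and the exon structure of the models. Per the deposited text beside the tables, models were built on mm10 with GENCODE M21; the models name TALON. Aligner and software versions: not given in the sources used here. Members and lists were chosen with earlier results of these data known. ERCC reads were left out, and a gene's count is the sum over its models. CPM scales to all mouse reads. Per gene, libraries were compared with Fisher's exact test, two-sided (at least 10 reads over both) and for isoform use by a chi-square test (at least 50 reads in each, isoforms under 10 merged), both with Benjamini-Hochberg adjustment over all genes tested and a threshold of 0.05. They compare 2 libraries, not conditions. Log2 ratios and their 95% intervals had 0.5 reads added. Shares have 95% Wilson intervals. Unannotated chains were matched between libraries by their introns, so 1 chain counts once whatever its class, and single-exon unannotated models were pooled per gene. Coordinates are 1-based. Counting all overlapping reads of the strand changed 5 members, by at most 4 reads. Named were all members, unannotated chains with at least 3 reads in each library and 5% of the reads of the gene, exons included in 5% to 95%, and pathway genes past the test or among the 5 with most reads. The tests were tested on simulated data. Alternatives were other models counted, library sizes (TMM from edgeR 4.0.16, DESeq2 1.42.0 factors), read minimums and leaving out a library. Tools were Python 3.11.15 with scipy 1.17.1, and bedtools 2.31.1. RefSeq promoters carry the build GRCm38.p6. Protein sequences were not used here.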

Additional observations from a re-analysis of the deposited data

How the results depend on the processing

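The members called between the libraries numbered 1 in the reported fit and 0 when only Known models were counted or no read minimum was set, and 1 under the 6 other settings of models, strand, library size and minimum. Isoform calls were 0 under all 5 settings run. Of 342 recomputed log2 ratios of single members, 2 lost the call (both Psmc3) and 12 changed sign without being past the threshold in either setting. No paired analysis was possible because there is 1 group. Scaled to protein-coding reads, the summed level was 6082 CPM and the group medians rose to 119 (alpha ring), 110 (structural beta), 176 (constitutive catalytic beta), 2.68 (immune beta), 241 (base ATPases), 210 (other base), 155 (lid), 46.1 (regulatory particle chaperones) and 14.0 CPM (core particle chaperones), by construction, since fewer reads form the denominator. With Known models only, the sum was 4535 CPM and the medians were 98.4 (alpha ring), 89.5 (structural beta), 172 (base ATPases), 131 (other base), 122 (lid), 33.8 (regulatory particle chaperones) and 11.5 CPM (core particle chaperones), and the immune catalytic share was 4.01%. Without Genomic and Antisense models the sum was 5325 CPM. Without models under 5 reads, class shares were Known 91.3%, ISM 6.54%, NIC 0.684%, NNC 0.738% and Genomic 0.693%, and NIC and NNC held 1.44% of spliced reads; the unannotated classes thus rest largely on models with few reads. Members with several isoforms numbered 7 at a minor share of 5%, 1 at 20% (Psmd4) and 2 at 100 reads (Psmb6 and Psmd4). With ISM models kept there were 6 (Psma7, Psmc1, Psmd1, Psmd11, Psmd4 and Psmd5), without Psmb6. Depth limits the tests: the members with under 50 reads in a library have log2 intervals that span more than 1 unit.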
